A study of Caenorhabditis elegans with 15 samples.

Results

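Transcript levels in whole adult Caenorhabditis elegans worms carrying a mutation in fbf-2 were compared with those of the N2 wild type (WT) across every annotated gene. The comparison rests on 6 of the 15 libraries of the series, 3 labelled fbf-2 and 3 labelled WT, chosen by their labels and not by any measured value. Worms of both groups were adults grown on solid medium with no treatment, and RNA was extracted from the whole animal with TRIzol and made into libraries with an mRNA sequencing kit. The labels call the molecule total RNA. They name no allele for the fbf-2 strain and say nothing of further mutations, of the sex or exact adult age of the worms, or of how the 3 libraries of a group were obtained from cultures. If they share a culture, the p-values below reflect technical spread alone.

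FBF-1 and FBF-2 are a pair of nearly identical RNA-binding proteins of the PUF (Pumilio and FBF) family. They bind short elements in the 3' untranslated regions of germline mRNAs, recruit deadenylases with their partner proteins, and lower the translation or stability of the bound messages. In the adult hermaphrodite they are known for keeping germline stem cells undifferentiated and for the switch from making sperm to making oocytes, and each is known from earlier work to bind the mRNA of the other. Because the worms were sequenced whole, transcripts of germ cells, embryos in the uterus and somatic tissues were measured together.

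Between 18359546 and 23946404 reads were counted on genes in the fbf-2 libraries and between 9068700 and 20659808 in the WT libraries. WT replicate 1 stood apart from the rest. It was the least deeply sequenced and correlated least with the other libraries of its group. Ribosomal RNA genes took 0.164 to 2.81% of the counts in the fbf-2 libraries, 4.62% in WT replicate 1, and 0.516% and 0.976% in the other WT libraries. Results that rest on it are given with and without it. Levels below are CPM, counts scaled to a common library size, fold changes are log2 values of fbf-2 over WT, and adjusted p-values are from edgeR's quasi-likelihood test with Benjamini-Hochberg adjustment over all genes tested.

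The fbf-2 message itself was at 5.71, 6.84 and 6.66 CPM in the fbf-2 libraries, against 25.4, 30.6 and 34.2 CPM in the WT libraries. All 3 mutant libraries lay below all 3 WT libraries, with a log2 fold change of -2.24 (SE 0.152, adjusted p = 0.000136), so the labels and this gene do not conflict. The gene lies on the minus strand of chromosome II (6088863 to 6091480 in WBcel235). Its neighbour fbf-1 (6078263 to 6080843, same strand) stood at 66.0, 67.1 and 71.8 CPM in fbf-2 and at 34.5, 43.7 and 40.6 CPM in WT. It rose by 0.78 on the log2 scale (SE 0.111, adjusted p = 0.00322), and again the groups did not overlap. Reads that match both fbf genes could have been assigned to either, and the sources used here do not say how the counting treated them.

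Of 13401 genes tested, 2095 (15.6%) passed an adjusted p of 0.05. In fbf-2 worms 738 genes rose (5.51%) and 1357 fell (10.1%), and the median log2 fold change of all genes was -0.04. Most changes were small: 171 genes rose and 522 fell by more than 2-fold, and the median size of a called change was 0.78 on the log2 scale. In 17.8% of genes every fbf-2 library lay above every WT library, and in 20.1% every fbf-2 library lay below.

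How many genes were called depended on the libraries and the scaling. Without WT replicate 1 there were 2523 rises and 2480 falls, and with the replicate number as a block 2073 and 2340. Leaving out any 1 of the other libraries, which leaves a group with a pair, gave 189 to 332 rises and 509 to 788 falls, the fewest without WT replicate 3. With upper-quartile scaling the median of all genes became -0.11, and the split was 449 rises (3.35%) and 1682 falls (12.6%). Under all 15 alternatives together, 149 of the rises and 432 of the falls were kept. Calls that were lost when a single library was left out are named beside the genes below.

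**Figure D1:**
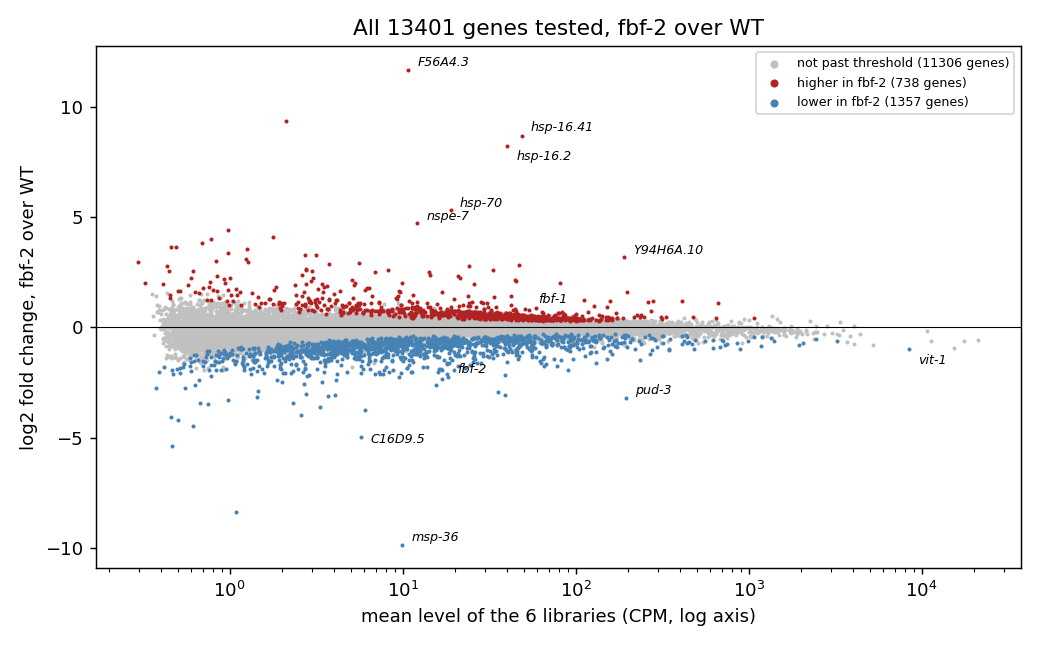
Log2 fold change of fbf-2 over WT against mean CPM of the 6 libraries (log axis) for the 13401 genes tested, 1 point per gene, with 738 genes higher (red) and 1357 lower (blue) in fbf-2. Points far above the rest include the hsp-16 genes, hsp-70 and F56A4.3, and the lowest point is msp-36. Fitted fold changes of genes with no counts in a group, such as F56A4.3, depend on the prior count and have no true size.

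Among genes with counts in both groups, the largest fitted rises were in heat-inducible chaperone genes, first the hsp-16 pair and then hsp-70. hsp-16.41, which encodes a small heat shock protein that holds unfolding proteins in solution, was at 108, 65.7 and 117 CPM in fbf-2, against 0.323, 0.213 and 0.214 CPM in WT (log2 8.65, SE 0.351, adjusted p = 1.7e-05). Its divergent neighbour hsp-16.2 had 92.1, 58.9 and 89.5 CPM in fbf-2 and 0.646, 0.106 and 0.214 CPM in WT. The stress-inducible Hsp70 gene hsp-70 had 37.5, 25.1 and 48.2 CPM in fbf-2 and 0.861, 0.745 and 1.18 CPM in WT, a log2 change of 5.29 (SE 0.313, adjusted p = 8.4e-05). In each of these genes fbf-2 replicate 2 was the lowest mutant library and still stood far above every WT library. The Hsp70-family gene F44E5.5 rose at a much lower level, with 58 counts over the fbf-2 libraries and 3 over the WT libraries, a ratio of 13.6 (95% counting interval 4.41 to 67.6). Without WT replicate 3 it no longer passed (adjusted p = 0.0626). Only these 4 of 9 listed inducible heat shock genes had enough counts to be tested, and the hsp-16 genes and F44E5.5 passed the count filter only through the fbf-2 libraries, so nothing is read from the number that rose. The hsp-16 genes are near-identical copies that may share reads.

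Genes listed as constitutive chaperones moved less, although the list also holds hsp-4, which is inducible. Of 27 such genes 5 rose and 0 fell (18.5% against 5.51% of all genes; 8 rose and 1 fell without WT replicate 1, and 8 rose with the replicate block), and their median log2 fold change was 0.17. The small heat shock protein gene hsp-17 had 95.8, 71.3 and 79.3 CPM in fbf-2 and 15.3, 10.4 and 9.89 CPM in WT (log2 2.82, SE 0.189, adjusted p = 0.000135). hsp-4, the worm BiP, which folds proteins in the endoplasmic reticulum and is induced when unfolded proteins accumulate there, had 877, 845 and 1027 CPM in fbf-2 and 375, 445 and 447 CPM in WT (log2 1.12, adjusted p = 0.00119). The groups of both genes were far apart, and pdi-6, a protein disulfide isomerase (log2 0.71, adjusted p = 0.00282), and sti-1, a co-chaperone of Hsp70 and Hsp90 (0.56, adjusted p = 0.00749), also rose. The calreticulin gene crt-1 rose by 0.41 on the log2 scale, a call that ended under upper-quartile scaling (adjusted p = 0.0854) and without any library other than WT replicate 1 (adjusted p up to 0.16). Among genes chosen after their values were seen, xbp-1, the transcription factor of the unfolded protein response, was at 258, 245 and 254 CPM in fbf-2 and 171, 196 and 182 CPM in WT (log2 0.46, adjusted p = 0.0149). This call was lost without WT replicate 3 or any 1 fbf-2 library (adjusted p 0.0622 to 0.0687). ckb-2, which encodes a choline kinase and was chosen in the same way, had 77.9, 67.3 and 73.7 CPM in fbf-2 against 21.1, 12.7 and 17.3 CPM in WT (log2 2.12, adjusted p = 0.000288).

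Other large rises were spread over several functions. Y94H6A.10, a protein-coding gene with no assigned name, was at 392, 279 and 356 CPM in fbf-2 and at 53.3, 27.5 and 34.1 CPM in WT (log2 3.17, SE 0.247, adjusted p = 0.000236). saeg-2, named as a suppressor of the cGMP-dependent kinase EGL-4, had 47.7, 39.8 and 38.8 CPM in fbf-2 and 7.21, 6.28 and 5.24 CPM in WT (log2 2.77, adjusted p = 5.99e-05). cdr-4, of a family named for its response to cadmium, had 59.9, 51.5 and 60.3 CPM in fbf-2 and 12.9, 7.71 and 8.61 CPM in WT (log2 2.58). In none of these did the groups come close to overlapping. ule-1, named for its expression in the uterine lumen (log2 2.01, SE 0.0984), and catp-3, an ATPase of the cation-transporting family (2.12), were among the rises with the smallest adjusted p. lea-1, a relative of the late embryogenesis abundant proteins linked to desiccation tolerance, had 559, 550 and 599 CPM in fbf-2 and 198, 279 and 281 CPM in WT (log2 1.17, adjusted p = 0.00185). snpc-1.3, a subunit of the snRNA-activating complex known to drive piRNA genes in male germ cells, had 5.32, 5.67 and 3.24 CPM in fbf-2 and 0.969, 0.798 and 0.642 CPM in WT (log2 2.60, adjusted p = 0.0013). The rises named by size or significance also took in T14G8.3 (log2 1.61, 299 against 98.0 CPM on average), Y102A5C.36 (2.85), Y54G2A.36 (2.52), the long non-coding Y71F9AM.9 (3.26) and the pseudogenes W06A11.4 (2.58) and Y48G1BL.5 (2.64), none of which has an assigned function here.

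Genes of nspe, a family of short nematode-specific peptides of unknown role, were also among the rises. Of 8 nspe genes counted by the authors 4 had enough counts to be tested, nspe-7 and nspe-5 only through the fbf-2 libraries where they were high, so again the share that rose is not read as a result. nspe-7 was at 27.6, 18.4 and 23.6 CPM in fbf-2 and 1.83, 0.319 and 0.909 CPM in WT (log2 4.70, SE 0.392, adjusted p = 0.000297). nspe-1, the most abundant of them, was at 41.4, 27.1 and 36.8 CPM in fbf-2 and 12.3, 3.46 and 7.49 CPM in WT (log2 2.24, adjusted p = 0.00639). In both genes fbf-2 replicate 2 was the lowest mutant library and WT replicate 1 the highest WT library. nspe-2 rose by 2.90 and nspe-5 by 2.24 on the log2 scale, the call of nspe-5 being lost without WT replicate 2 or 3 or fbf-2 replicate 1 or 2 (adjusted p 0.0616 to 0.125). The 4 genes lie next to each other on chromosome II (12619173 to 12629384) and may share reads.

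**Figure D2:**
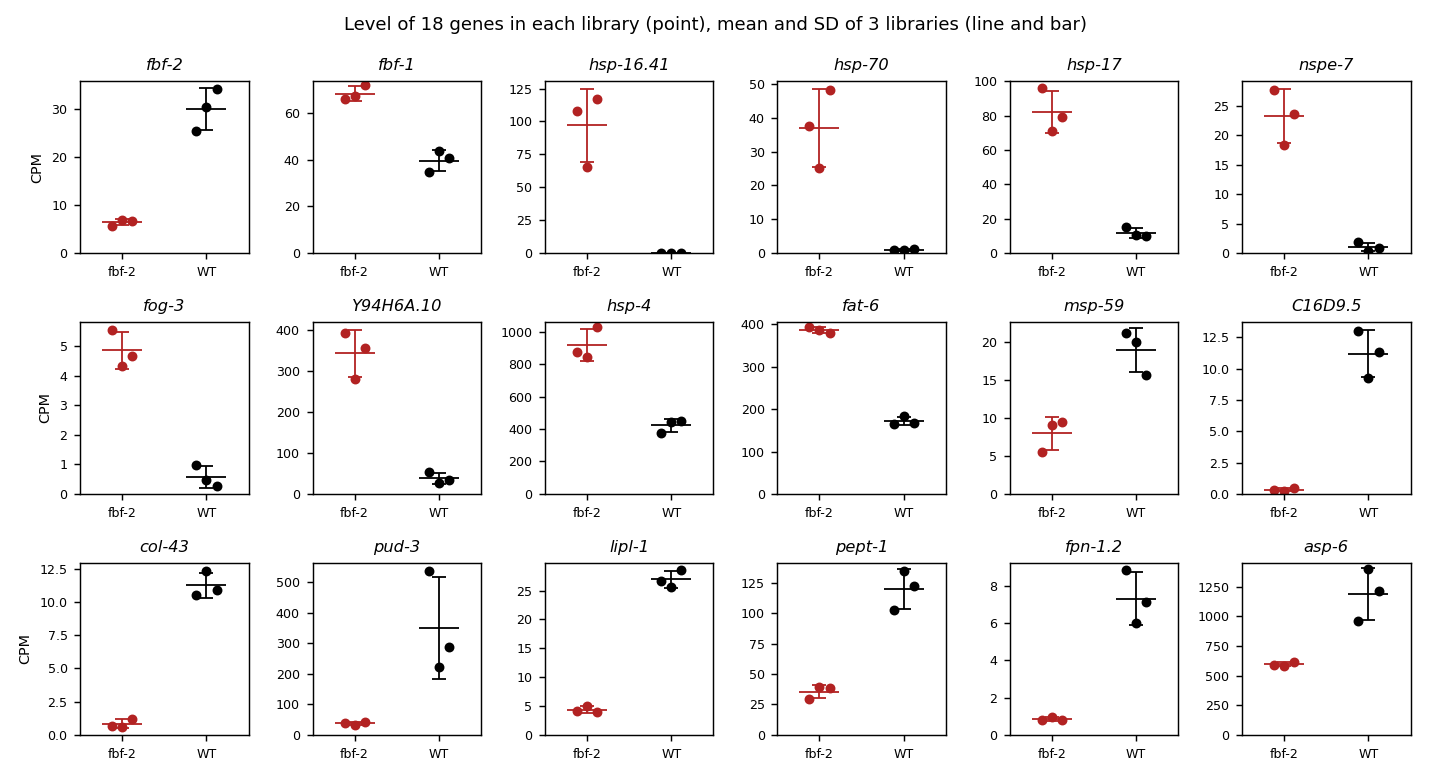
CPM of 18 genes in each library, with the 3 fbf-2 libraries (red) left of the 3 WT libraries (black); the line is the mean and the bar the SD of 3 libraries, and each panel has its own linear axis starting at 0. The groups do not overlap in any panel, with hsp-16.41 at 65.7 to 117 CPM in fbf-2 against 0.213 to 0.323 CPM in WT and pept-1 at 29.2 to 39.0 CPM against 103 to 135 CPM.

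Genes of the FBF pathway itself changed little apart from the fbf pair. Of 8 other PUF genes 0 passed (1 fell with the block and 2 without WT replicate 1), the nearest being puf-8, which acts with FBF in germline stem cells, at 196, 187 and 185 CPM in fbf-2 and 154, 161 and 156 CPM in WT (log2 0.27, adjusted p = 0.0661). With the replicate block puf-8 passed (adjusted p = 0.0215), as it did without WT replicate 1 (0.0218) and under RLE scaling and DESeq2 (0.0494 and 0.0165). Of 11 genes for FBF partners and the deadenylase complex, such as lst-1, sygl-1, gld-3, nos-3 and ccf-1, 0 passed, with a median log2 fold change of 0.00 (1 rose and 2 fell with the replicate block, and 1 and 3 without WT replicate 1). Of 13 genes of the Notch pathway of the stem cell niche and its neighbours, such as glp-1, lag-1, lag-2, gld-1 and gld-2, 0 passed either (1 fell with the replicate block and 3 without WT replicate 1), with log2 fold changes between -0.36 and 0.24.

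Of 16 mRNAs known as FBF targets, 3 rose (18.8%) and 1 fell (6.25%), against 5.51% and 10.1% of all genes. The fall was fbf-2 itself and 1 of the rises was fbf-1. The clearest other change was in fog-3, a Tob-family gene that commits germ cells to sperm, which was at 5.55, 4.34 and 4.67 CPM in fbf-2 and 0.969, 0.479 and 0.267 CPM in WT (log2 3.25, SE 0.343, adjusted p = 0.000846). fog-1, a CPEB-type RNA-binding protein with the same role, was at 38.9, 34.8 and 34.7 CPM in fbf-2 and 22.3, 29.8 and 26.5 CPM in WT (log2 0.46, adjusted p = 0.0453). That call was lost under upper-quartile scaling (adjusted p = 0.079) and without WT replicate 3 or any 1 fbf-2 library (0.101 to 0.158). fem-3, the message after which the FBF proteins were named and which also promotes sperm, had 71.3, 67.7 and 68.3 CPM in fbf-2 and 59.7, 50.8 and 55.6 CPM in WT (log2 0.32). Its groups did not overlap but the adjusted p was 0.0538, and it passed with the replicate block (adjusted p = 0.00956), without WT replicate 1 (0.00631), under RLE scaling (0.0406), by DESeq2 (0.0188) and by limma-voom (0.0488). The median log2 fold change of the 16 targets was 0.25, and 12 of them were positive. With the block 8 rose and 1 fell, and without WT replicate 1 there were 8 rises and 4 falls. fog-3 passed the count filter only through the fbf-2 libraries, where it was high. Nothing is therefore read from its place among the rises of this list or of the sex determination and sperm function lists below.

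In the wider sex determination pathway 3 of 21 genes rose (14.3%) and 2 fell (9.52%), against 5.51% and 10.1% of all genes. With the block 5 rose and 3 fell, and without WT replicate 1 there were 4 rises and 6 falls. tra-3, a calpain protease that promotes female development, was at 34.8, 36.5 and 38.1 CPM in fbf-2 and 65.1, 76.6 and 72.8 CPM in WT (log2 -0.97, SE 0.101, adjusted p = 0.000796). fog-2, an F-box protein needed for sperm in hermaphrodites, rose by 0.52 (51.6 against 36.03 CPM on average), and sdc-2, which acts in dosage compensation and sex determination of XX animals, fell to 13.9 CPM on average in fbf-2, against 23.4 CPM in WT. The fog-2 call was lost without any library other than WT replicate 1 (adjusted p 0.0522 to 0.0826), and the sdc-2 call without WT replicate 3 or fbf-2 replicate 1 or 2 (0.0667 to 0.0871). The other switches of the pathway, including tra-1, tra-2, fem-1, fem-2, her-1 and xol-1, did not pass.

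Meiotic genes leaned upward by small amounts. All 14 genes of the synaptonemal complex and chromosome axis had a positive log2 fold change, with a median of 0.25, but 0 passed, and their summed level was 1172, 1139 and 1160 CPM in fbf-2 and 988, 970 and 1006 CPM in WT. With the replicate block 9 of the 14 rose, and without WT replicate 1 there were 8 rises. Among 30 genes for meiotic breaks, pairing and crossovers 5 rose (16.7% against 5.51% of all genes) and 0 fell. They were the pairing-centre protein gene zim-2 (log2 0.41), the break-making enzyme gene spo-11 (0.52), its regulator dsb-1 (0.36), the F-box gene prom-1 (0.34) and the RING-finger gene zhp-1 (0.73). Each of these 5 calls ended without WT replicate 3 or any 1 fbf-2 library, and all but that of zim-2 also without WT replicate 2 (adjusted p 0.057 to 0.151). Under upper-quartile scaling dsb-1, prom-1 and zhp-1 did not pass (0.0544 to 0.0639). In the same list 15 rose with the replicate block and 13 without WT replicate 1. Of 36 DNA replication genes 3 rose (8.33% against 5.51% of all genes) and 0 fell. The rises were the thymidylate synthase gene tyms-1 (log2 0.44), the origin recognition gene orc-4 (0.41) and the clamp loader gene rfc-3 (0.33). None of the 3 passed under upper-quartile scaling (adjusted p 0.057 to 0.0869), and each also ended without fbf-2 replicate 1 or 2 or WT replicate 2 or 3, orc-4 and rfc-3 without fbf-2 replicate 3 too (0.0702 to 0.167). With the block or without WT replicate 1 the replication list had 9 rises. Of 27 cell cycle genes 0 passed in either direction (1 fell with the block or under upper-quartile scaling, and 3 rose and 3 fell without WT replicate 1).

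In the germ granule and Argonaute list 1 of 29 genes rose (3.45%) and 2 fell (6.9%). Both shares lay below those of all genes (5.51% and 10.1%). csr-1, an Argonaute that binds germline-expressed genes, was at 302, 339 and 357 CPM in fbf-2 and 443, 624 and 577 CPM in WT (log2 -0.72, adjusted p = 0.0138), and the germline helicase gene glh-1 fell by 0.56 (adjusted p = 0.0325). The Argonaute gene C04F12.1 rose by 0.53 (adjusted p = 0.0203). WT replicate 1 was the lowest WT library in all 3 genes. Without it 11 of the 29 fell, and with the block 8 fell and 3 rose. The csr-1 call was lost without WT replicate 3 or fbf-2 replicate 1 or 2 (adjusted p 0.0613 to 0.0693), that of C04F12.1 without WT replicate 3 or any 1 fbf-2 library (0.0534 to 0.0783), and that of glh-1 without any library other than WT replicate 1 (0.0773 to 0.136).

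The authors' deposited table flags genes as germline-enriched or as bound by FBF-2, by definitions that the sources used here do not state. The flags overlap, so they were separated. Of 1106 genes flagged as bound and not as germline-enriched, 59 rose (5.33%) and 22 fell (1.99%). Of 1816 flagged as germline-enriched and not as bound, 183 rose (10.1%) and 89 fell (4.90%), and of 742 with both flags 44 rose (5.93%) and 9 fell (1.21%). Of 9737 genes with neither flag, 452 rose (4.64%) and 1237 fell (12.7%). The shares that fell in the flagged classes were thus 1.21 to 4.90%, against 10.1% of all genes, and the largest share of rises was in the germline-enriched genes without the FBF-2 flag. No test was made between the classes. Without WT replicate 1 the differences in falls narrowed relative to the share of all genes, which was then 18.1%. There were 180 falls among 1107 bound-only genes (16.3%), 192 among 1857 germline-only genes (10.3%) and 79 among 742 with both flags (10.6%). With the block the falls were 99, 185 and 31, which is 8.95%, 10.2% and 4.18%, against 17.5% of all genes. Rises in the same 3 classes were 234 (21.2%), 528 (29.1%) and 171 (23%) with the block, against 15.5% of all genes. Without WT replicate 1 they were 266 (24%), 584 (31.4%) and 196 (26.4%), against 18.4% of all genes. Under upper-quartile scaling falls outnumbered rises in the bound-only class (35 and 29) and in the germline-only class (109 and 93).

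Most sperm genes that changed moved the opposite way from fog-3. The major sperm proteins are the cytoskeletal proteins that drive sperm crawling and are made in spermatocytes from many near-identical genes, so reads may be split among them. Their summed level was 105, 166 and 149 CPM in fbf-2 and 329, 276 and 240 CPM in WT. Of 28 tested, 20 fell and 0 rose (71.4% against 10.1% of all genes), with 5 to 10 falls when any 1 library other than WT replicate 1 was left out and 21 without WT replicate 1. msp-59 was at 5.51, 8.98 and 9.44 CPM in fbf-2 and 21.1, 19.9 and 15.6 CPM in WT (log2 -1.24, adjusted p = 0.00846), and msp-81 (log2 -1.25) and msp-76 (-0.94) had similar falls. msp-36 stood apart, with 1 count over the fbf-2 libraries and 914 over the WT libraries, a ratio of 0.000767 (95% counting interval 1.94e-05 to 0.00428). It passed the count filter only through the WT libraries, where it was high, so nothing is read from its place among the 20 falls. In a bulk sample, fewer sperm or spermatocytes and less RNA in each of them cannot be told apart.

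Among other sperm genes more fell than rose, as was also so among all genes (10.1% and 5.51%). The shares that fell and rose were 25% and 12.5% in the sperm function list. They were 14.3% and 3.57% in the families spe, ssp, ssq and sss, near those of all genes, and 33.3% and 0% among nspd genes. Of 16 sperm function genes 2 rose, which are fog-1 and fog-3, and 4 fell (9 fell with the replicate block), namely the sperm phosphatase genes gsp-3 (3.20 against 6.95 CPM on average, log2 -1.14, adjusted p = 0.0104) and gsp-4 (-1.20), the sperm chromatin gene spch-1 (-0.86) and the PDZ domain gene smz-1 (-0.69). The summed level of these 16 genes and 1 untested one did not follow the falls, at 399, 410 and 423 CPM in fbf-2 and 314, 434 and 393 CPM in WT. Of 28 genes of the sperm families spe, ssp, ssq and sss 4 fell, ssq-2 (log2 -1.05), ssp-10 (-0.96), ssq-1 (-0.90) and ssq-4 (-0.77), and 1 rose, spe-48 (0.34) (8 fell and 2 rose with the block). Of 9 nspd peptide genes, which are expressed in sperm-producing germlines, 3 fell, led by nspd-4 at 2.11, 2.20 and 2.22 CPM in fbf-2 and 5.49, 4.73 and 5.19 CPM in WT (log2 -1.23, adjusted p = 0.00263) and followed by nspd-7 (-0.93) and nspd-2 (-0.83) (5 fell with the block). Only gsp-3 and nspd-4 of these genes and fog-3 kept their call when any single library was left out. The calls of ssq-1 and ssq-2 ended without WT replicate 3, that of spch-1 without WT replicate 3 or fbf-2 replicate 1, and that of ssp-10 without WT replicate 3 or fbf-2 replicate 1 or 3 (adjusted p 0.0513 to 0.0761 in these 4 genes). gsp-4 ended without WT replicate 2 or 3 or fbf-2 replicate 1 or 2, nspd-7 without WT replicate 2 or any 1 fbf-2 library, nspd-2 without WT replicate 2 or 3 or fbf-2 replicate 1 or 3, and smz-1, ssq-4 and spe-48 without any library other than WT replicate 1 (adjusted p 0.0502 to 0.158). spe-48 also ended under upper-quartile scaling (0.085) and with no count filter (0.0532). Markers of male tail neurons were near 0 in both groups, with a summed level of 0.51 to 0.74 CPM over 7 genes in fbf-2 and 0.585 to 1.08 CPM in WT.

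Genes of the later steps of reproduction follow. Of 29 oocyte and eggshell genes, 1 rose (3.45%) and 2 fell (6.9%), shares below those of all genes (5.51% and 10.1%). The rise was the chondroitin proteoglycan gene cpg-3 of the eggshell (log2 0.45, 553 against 404 CPM on average). The falls were perm-4 (-0.65, 773 against 1209 CPM) and perm-2 (-0.56), which are needed for the permeability barrier (5 fell without WT replicate 1). Each of these 3 calls ended without any library other than WT replicate 1 (adjusted p 0.0517 to 0.122). For cpg-3 upper-quartile scaling ended it as well (0.053). Yolk protein genes, made in the intestine and taken up by oocytes, summed to 45121, 52416 and 59360 CPM in fbf-2 and to 53651, 106747 and 90406 CPM in WT. WT replicate 1 thus overlapped the fbf-2 libraries while the other WT libraries lay far above them. Of the 6 vit genes only vit-1 passed (16.7% fell, against 10.1% of all genes), at 4796, 5620 and 6469 CPM in fbf-2 and 7395, 14177 and 12281 CPM in WT (log2 -1.00, adjusted p = 0.0309). Without WT replicate 1 all 6 fell, with the replicate block 3 did, and without any other library 0 did (vit-1 adjusted p up to 0.123). Genes first transcribed in the embryo, the sdz and vet families, had 4 falls (16% against 10.1% of all genes) and 0 rises among 25. The clearest were vet-6 (log2 -0.80, adjusted p = 0.00363) and sdz-30 (-0.74, adjusted p = 0.00652), and 9 fell with the block. The other falls, sdz-18 (-1.99) and sdz-28 (-0.53), ended without WT replicate 3 or fbf-2 replicate 1 or 2, and sdz-28 also without WT replicate 2 or fbf-2 replicate 3 (adjusted p 0.067 to 0.12).

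**Figure D3:**
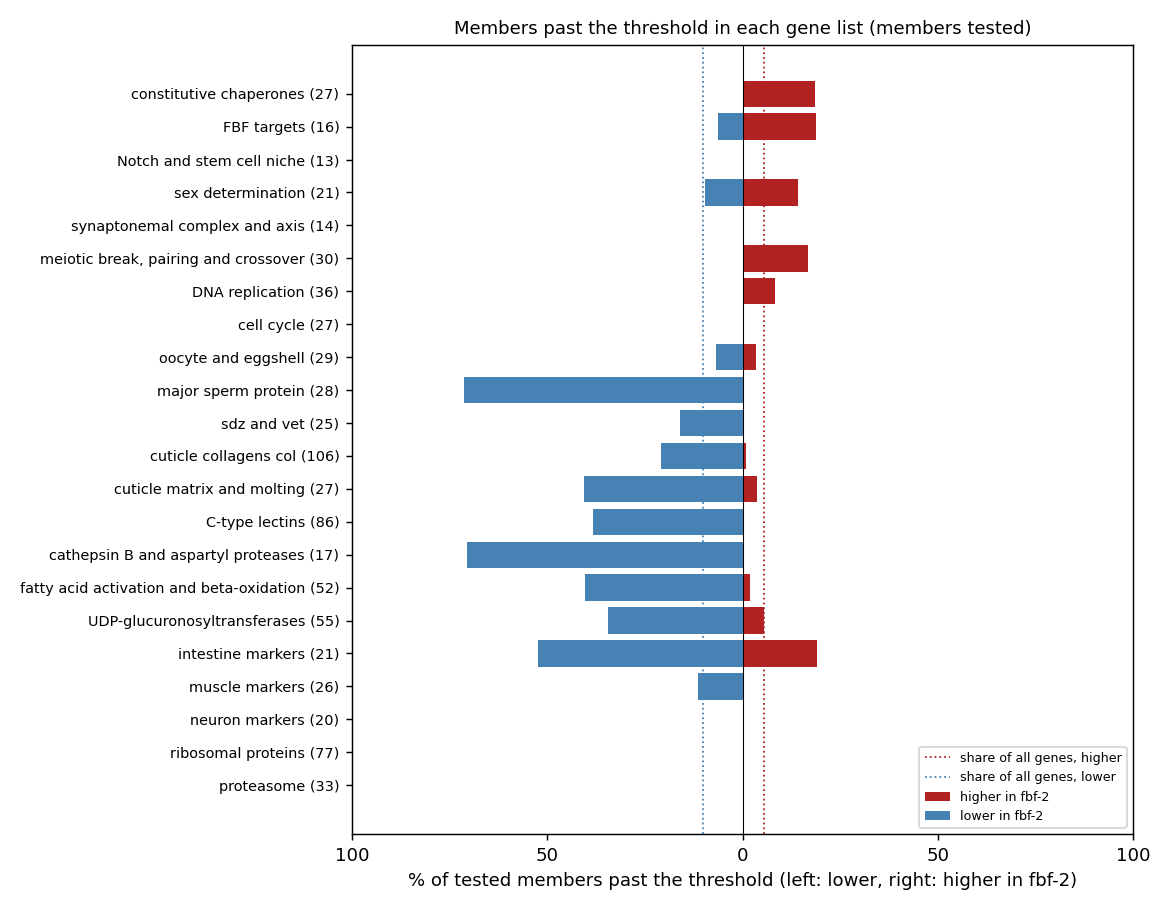
Share of tested members of 22 gene lists that passed an adjusted p of 0.05, with genes higher in fbf-2 to the right in red and lower ones to the left in blue; the number of members tested stands in brackets and dotted lines give the shares of all genes (5.51% and 10.1%). Major sperm protein (71.4%), protease (70.6%) and intestine marker genes (52.4%) had the largest shares lower in fbf-2 among these lists. The major sperm protein share includes msp-36, which passed the count filter only through the WT libraries.

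Genes for the cuticle, the collagen-rich outer coat of the worm, and for its moulting matrix were among the lists with many falls. Of 27 cuticle matrix and moulting genes 11 fell (40.7% against 10.1% of all genes; 9 or 10 when any 1 library other than WT replicate 1 was left out) and 1 rose. noah-1, a zona pellucida domain protein of the precuticle, was at 11.9, 12.5 and 16.9 CPM in fbf-2 and 40.5, 43.1 and 44.7 CPM in WT (log2 -1.64, SE 0.151, adjusted p = 0.000445). Its partner noah-2 (log2 -1.32), the fibrillin-related fbn-1 (-2.02), the extracellular leucine-rich repeat gene sym-1 (-1.35) and nhr-25, a nuclear receptor needed for moulting (-1.44), also fell. The single rise, mlt-3 (log2 0.59), was lost under upper-quartile scaling (adjusted p = 0.0683) and without any library other than WT replicate 1 (up to 0.14).

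Of 106 collagen genes named col, 22 fell (20.8% against 10.1% of all genes) and 1 rose, with a median log2 fold change of -0.31 (34 and 1 with the replicate block, 37 and 2 without WT replicate 1, 6 to 12 falls without any 1 other library). col-43 was at 0.704, 0.613 and 1.20 CPM in fbf-2 and 10.5, 12.3 and 10.9 CPM in WT (log2 -3.74, SE 0.239, adjusted p = 0.000118). The abundant col-98 was at 524, 553 and 589 CPM in fbf-2 and 902, 979 and 928 CPM in WT (log2 -0.75, adjusted p = 0.00321), and col-135 (-1.27) and col-158 (-1.68) fell as clearly. The rise was col-111 (log2 1.53), a call that ended without WT replicate 2 or 3 or fbf-2 replicate 1 or 2 (adjusted p 0.0513 to 0.0729). col-122, col-93, col-181, col-106 and col-184 were among the 10 genes with the largest loss of CPM, with log2 fold changes of -0.47 to -0.71. Their calls were lost without fbf-2 replicate 1 or 2, and all but that of col-106 also without fbf-2 replicate 3 or WT replicate 2 or 3 (adjusted p up to 0.131). Among 20 further named cuticle collagens, many of the furrows that ring the worm, 6 fell (30% against 10.1% of all genes) and 0 rose. The falls were dpy-3 (log2 -1.90), dpy-14 (-1.50), dpy-17 (-1.30), dpy-7 (-1.29), sqt-3 (-0.81) and dpy-10 (-0.76). sqt-3 ended without fbf-2 replicate 3 (adjusted p = 0.0579), dpy-7 without WT replicate 2 or fbf-2 replicate 1 or 3 (up to 0.0878) and dpy-10 without any library other than WT replicate 1 (up to 0.117).

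Secreted hedgehog-related proteins and their patched-related receptors are expanded in nematodes and act in the epidermis. Of 26 hedgehog-related genes 4 fell (15.4% against 10.1% of all genes) and 0 rose, with a median log2 fold change of -0.06, near that of all genes (1 rose with the block and 3 without WT replicate 1). wrt-10 was at 2.62, 1.79 and 2.45 CPM in fbf-2 and 7.21, 5.05 and 4.71 CPM in WT (log2 -1.27, adjusted p = 0.00976), and the others were wrt-9 (-1.21), grd-14 (-0.86) and grl-4 (-0.85). Of 19 ptr genes 3 fell (15.8% against 10.1% of all genes), ptr-1 (log2 -0.97), ptr-13 (-0.86) and ptr-24 (-0.71). There were 9 falls with the replicate block or without WT replicate 1. Of these 7 genes only wrt-10 kept its call in every omission. ptr-1 ended without WT replicate 3 (adjusted p = 0.0601), grd-14 without fbf-2 replicate 1 or 2 (up to 0.0526), ptr-13 without WT replicate 3 or fbf-2 replicate 1 or 2 (up to 0.0803), wrt-9 and ptr-24 without WT replicate 2 or 3 or fbf-2 replicate 1 or 2 (up to 0.109) and grl-4 without any library other than WT replicate 1 (up to 0.107).

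The intestine was the somatic tissue with the largest share of its markers changed among the 7 tissues listed. Of 21 intestine markers 11 fell (52.4% against 10.1% of all genes) and 4 rose (19% against 5.51%), with a median log2 fold change of -0.49 (6 to 8 falls and 2 to 4 rises when any 1 library other than WT replicate 1 was left out), and their summed level was 3984, 4191 and 4275 CPM in fbf-2 and 5095, 6691 and 6044 CPM in WT. pept-1, the transporter that takes up dietary peptides, was at 29.2, 39.0 and 38.4 CPM in fbf-2 and 103, 135 and 122 CPM in WT (log2 -1.76, SE 0.147, adjusted p = 0.000297). The gut esterase gene ges-1 (log2 -0.77), the ABC transporter gene pgp-1 (-1.48) and the lectin gene clec-63 (-0.99) fell as well. elt-2, the GATA factor that maintains intestinal fate, chosen after its values were seen, was at 6.06, 7.45 and 7.59 CPM in fbf-2 and 8.93, 11.4 and 11.1 CPM in WT (log2 -0.59, adjusted p = 0.0392), a call lost without any library other than WT replicate 1 (up to 0.149). The rises were the desaturase genes fat-5, fat-6 and fat-7, described below, and dct-18 (log2 0.40), which ended without WT replicate 3 or any 1 fbf-2 library (adjusted p 0.0629 to 0.0864).

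Digestive and lysosomal hydrolases fell together with these markers. Of 17 cathepsin B and aspartyl protease genes 12 fell (70.6% against 10.1% of all genes) and 0 rose (median log2 fold change -0.62; 7 to 9 falls when any 1 library other than WT replicate 1 was left out), and their summed level was 4657, 4774 and 4867 CPM in fbf-2 and 6505, 8358 and 7696 CPM in WT. The aspartyl protease gene asp-6 had 593, 584 and 615 CPM in fbf-2 and 959, 1396 and 1213 CPM in WT (log2 -0.99, adjusted p = 0.00379). cpr-6, a cathepsin B gene, had 486, 479 and 480 CPM in fbf-2 and 870, 883 and 906 CPM in WT (log2 -0.88, adjusted p = 0.0011). The mutant libraries varied little in both genes and lay well below WT. asp-13 (log2 -1.47), asp-14 (-0.87), cpr-8 (-1.03) and the cathepsin L gene cpl-1 (-0.83) fell too, while the call of asp-1 (-0.78) was lost without any library other than WT replicate 1 (adjusted p up to 0.0911). lipl-1, a lysosomal lipase, was at 4.10, 5.003 and 3.93 CPM in fbf-2 and 26.6, 25.7 and 28.6 CPM in WT (log2 -2.63, SE 0.14, adjusted p = 4.27e-05). Of 5 lysosomal lipase genes 3 fell (60% against 10.1% of all genes), the others being lipl-5 (-0.45) and lipl-7 (-0.55). The calls of lipl-5 and lipl-7 ended without any library other than WT replicate 1 (adjusted p up to 0.11). asm-3, an acid sphingomyelinase, was at 23.8, 26.5 and 25.3 CPM in fbf-2 and 70.8, 65.9 and 65.8 CPM in WT (-1.42). The large falls also held the lysosomal transporter homologue spin-3 (log2 -2.49) and the scavenger receptor gene scav-4 (-2.24).

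Many genes for fatty acid breakdown fell, among them enzymes of a single peroxisomal route. Of 52 genes for fatty acid activation and beta-oxidation 21 fell (40.4% against 10.1% of all genes) and 1 rose (14 to 17 falls when any 1 library other than WT replicate 1 was left out), with a median log2 fold change of -0.44. The rise, in the acyl-CoA dehydrogenase gene acdh-1 (log2 0.40, 736 against 557 CPM on average), ended under upper-quartile scaling (adjusted p = 0.0831) and without any library other than WT replicate 1 (up to 0.162). The 7 acyl-CoA oxidase (acox) genes, a subset singled out after its values were seen, all fell, and their summed level was 70.8, 78.6 and 72.8 CPM in fbf-2 and 158, 177 and 184 CPM in WT. These peroxisomal oxidases carry out the first step that shortens the side chains of ascaroside pheromones. acox-1.2 was at 11.8, 11.1 and 11.5 CPM in fbf-2 and 35.4, 37.9 and 39.6 CPM in WT (log2 -1.72, SE 0.108, adjusted p = 0.000118). acox-1.5 (log2 -1.87), acox-1.1 (-1.12), acox-3 (-1.05), acox-1.3 (-1.05), acox-1.4 (-0.75) and acox-1.6 (-0.59) followed. Of the 7 calls, acox-1.3 was lost without WT replicate 3 (adjusted p = 0.0565), acox-1.4 without WT replicate 3 or fbf-2 replicate 1 or 3 (up to 0.0704) and acox-1.6 without any library other than WT replicate 1 (up to 0.128). The other enzymes of the same peroxisomal route, chosen after their values were seen, were also lower: maoc-1, the hydratase (log2 -0.81, adjusted p = 0.0396), dhs-28, the dehydrogenase (-0.79, adjusted p = 0.000945), and daf-22, the thiolase (-0.57, adjusted p = 0.00582). The maoc-1 call ended without WT replicate 3 or any 1 fbf-2 library (adjusted p up to 0.129). The enoyl-CoA hydratase family gene ech-9 (log2 -3.99) and the acyl-CoA synthetase genes acs-7 (-1.79) and acs-14 (-1.24) stood among the largest falls of the list.

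Among 15 desaturases and elongases 3 rose and 3 fell (20% each, against 5.51% and 10.1% of all genes), and 5 fell with the block. fat-6, which makes oleic acid from stearic acid, was at 394, 386 and 379 CPM in fbf-2 and 165, 183 and 167 CPM in WT (log2 1.17, SE 0.0951, adjusted p = 0.000288). fat-5, which acts on palmitic acid, was at 35.4, 27.5 and 36.4 CPM in fbf-2 and 17.1, 14.1 and 15.1 CPM in WT (log2 1.11). fat-7, whose product resembles that of fat-6, rose by 0.52 (adjusted p = 0.0122). The palmitic acid elongase gene elo-2 moved the other way, at 79.3, 95.5 and 75.6 CPM in fbf-2 and 176, 188 and 175 CPM in WT (log2 -1.11, adjusted p = 0.000679), as did elo-9 (-0.85) and the delta-6 desaturase gene fat-3 (-0.45). The fat-7 call was lost without WT replicate 3 or fbf-2 replicate 2 or 3 (adjusted p up to 0.0696), that of elo-9 without WT replicate 3 (0.0588) and that of fat-3 without WT replicate 3 or any 1 fbf-2 library (up to 0.0739). icl-1, the glyoxylate cycle enzyme that lets worms make sugar from fat, was at 159, 166 and 184 CPM in fbf-2 and 74.5, 90.9 and 94.7 CPM in WT (log2 0.97, adjusted p = 0.00157).

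**Figure D4:**
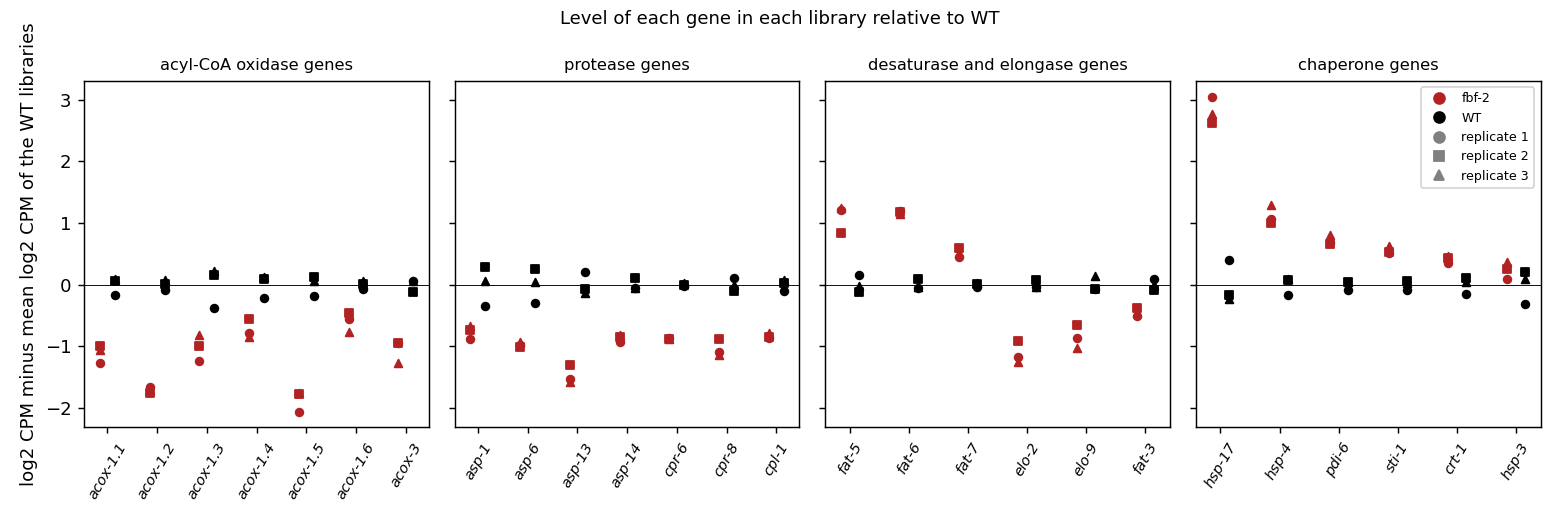
Log2 CPM in each library minus the mean log2 CPM of the WT libraries for genes of 4 groups, with fbf-2 (red) left of WT (black) and 1 marker shape per replicate number. The 7 acyl-CoA oxidase and 7 protease genes lie below 0 in every fbf-2 library, fat-5, fat-6 and fat-7 lie above, and the chaperone gene hsp-3 is shown as a member that did not pass.

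Lectins and lysozymes, many of them secreted and linked to immunity, fell in part. Of 86 C-type lectin genes 33 fell (38.4% against 10.1% of all genes) and 0 rose (median log2 fold change -0.61; 16 to 23 falls when any 1 library other than WT replicate 1 was left out), among them clec-67 at 6.41, 6.59 and 8.19 CPM in fbf-2 and 24.1, 27.8 and 26.5 CPM in WT (log2 -1.89, adjusted p = 0.000191), clec-223 (-2.17), clec-41 (-1.53) and clec-7 (-2.40). With the replicate block or without WT replicate 1 there were also 3 rises. Of 9 lysozyme genes 5 fell and 1 rose (55.6% and 11.1%, against 10.1% and 5.51% of all genes). lys-7 was at 39.1, 25.3 and 30.03 CPM in fbf-2 and 106, 60.9 and 73.8 CPM in WT (log2 -1.34), and lys-1 (-0.64), ilys-5 (-0.62), lys-8 (-0.52) and lys-6 (-1.54) also fell, while lys-2 rose by 0.60 (3 rises without WT replicate 1). The call of lys-8 ended without fbf-2 replicate 2 (adjusted p = 0.0537), that of lys-6 without WT replicate 3 (0.0605), that of ilys-5 without WT replicate 3 or fbf-2 replicate 2 or 3 (up to 0.0788) and that of lys-2 without WT replicate 3 or fbf-2 replicate 1 or 3 (up to 0.0787).

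Of 55 UDP-glucuronosyltransferase genes, which attach sugars to toxins, 19 fell (34.5% against 10.1% of all genes) and 3 rose (5.45%; 7 rose without WT replicate 1; 11 to 13 falls when any 1 library other than WT replicate 1 was left out), with ugt-65 (log2 -2.06) and ugt-9 (-1.93) the clearest falls. ugt-41 was at 47.4, 36.04 and 38.6 CPM in fbf-2 and 21.0, 22.2 and 22.2 CPM in WT (log2 0.90), and ugt-13 (0.94) and ugt-66 (1.38) rose too. Of 48 cytochrome P450 genes 9 fell (18.8%), including cyp-25A3 (log2 -1.45), cyp-13A2 (-2.11) and cyp-35A2 (-0.97), and 2 rose, cyp-35C1 (0.50) and cyp-31A5 (0.41). Of 35 glutathione S-transferase genes 4 rose (11.4%) and 1 fell (2.86%), while the median log2 fold change was -0.01, with 17 members positive and 18 negative (7 rises and 3 falls with the block, 7 and 1 without WT replicate 1). gst-1 was at 405, 330 and 353 CPM in fbf-2 and 188, 143 and 155 CPM in WT (log2 1.16, SE 0.134, adjusted p = 0.00122), and gst-20 (0.97), gst-9 (1.84) and gst-6 (0.68) rose as well, while gst-28 fell to 8.09, 9.39 and 8.88 CPM in fbf-2, against 19.8, 16.6 and 16.5 CPM in WT (log2 -1.00). The calls of cyp-35C1, cyp-31A5 and gst-6 ended under upper-quartile scaling (adjusted p 0.0681 to 0.0815). cyp-35C1 also ended without WT replicate 2 or 3 or fbf-2 replicate 1 or 2, ugt-66 without WT replicate 3 or fbf-2 replicate 1 or 2, and cyp-31A5 and gst-6 without any library other than WT replicate 1 (0.0601 to 0.161).

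Several genes that store and move iron fell. ftn-2, the main ferritin heavy chain, was at 76.7, 74.5 and 71.4 CPM in fbf-2 and 198, 151 and 158 CPM in WT (log2 -1.19, SE 0.119, adjusted p = 0.000679). The ferroportin gene fpn-1.2 was at 0.782, 0.970 and 0.787 CPM in fbf-2 and 8.83, 6.01 and 7.11 CPM in WT (log2 -3.09), and its relative fpn-1.1 (-0.83) and the zinc transporter gene zipt-2.3 (-1.10) fell too. Altogether 5 of 15 iron and metal transport genes fell (33.3% against 10.1% of all genes; median log2 fold change -0.29; 7 fell and 2 rose with the block, and 3 rose without WT replicate 1) and 1 rose, the metallothionein gene mtl-1 (log2 1.94, 4.35 against 1.14 CPM on average). One of the 5, the haem homeostasis gene hrg-7 (log2 -0.51), no longer passed without any library other than WT replicate 1 (adjusted p 0.0625 to 0.136).

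Markers of other tissues fell by less or in fewer members. Of 26 muscle markers 3 fell (11.5%, near the 10.1% of all genes), 0 rose and the median log2 fold change was -0.27, against -0.04 for all genes. The falls were hlh-1, the muscle-determining MyoD homologue at 1.60, 1.43 and 1.06 CPM in fbf-2 and 4.09, 3.94 and 3.90 CPM in WT (log2 -1.53, adjusted p = 0.00286), unc-97 (-0.59) of the muscle attachments and the troponin gene tni-3 (-0.42). unc-97 ended without WT replicate 3 or fbf-2 replicate 2 (adjusted p up to 0.0579) and tni-3 without any library other than WT replicate 1 (up to 0.0981). The number of muscle markers that fell was 12 with the replicate block, 17 without WT replicate 1 and 1 or 2 without any other library. Of 17 pharynx markers 1 fell and 1 rose (5.88% each, against 10.1% and 5.51% of all genes), with 4 falls and 2 rises with the block. The fall was the organ-determining factor gene pha-4 (log2 -1.35, adjusted p = 0.000808). The rise was phat-3 (0.72, lost without WT replicate 2 or 3 or fbf-2 replicate 1 or 2, adjusted p up to 0.0759). Of 14 epidermis markers 4 fell and 1 rose (28.6% and 7.14%, against 10.1% and 5.51% of all genes). The falls were nhr-25, fbn-1, wrt-10 and dpy-7 above, and the rise was Y37A1B.5 (log2 0.68). There were 7 falls with the block and 8 without WT replicate 1.

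Of 19 somatic gonad markers 4 fell (21.1% against 10.1% of all genes) and 0 rose. The falls were spv-1 (log2 -0.69), lim-7 (-0.67), kin-2 (-0.56) and inx-8 (-0.30) (9 falls with the block, 13 without WT replicate 1 and 0 or 1 without any other library). spv-1 ended without WT replicate 3 or fbf-2 replicate 1 or 3, and the others without any library other than WT replicate 1 (adjusted p 0.0553 to 0.196), inx-8 and kin-2 also under RLE scaling (0.0673 and 0.0513). None of the 20 neuron markers tested passed (median -0.32, 3 falls with the block and 6 without WT replicate 1), nor did any of 5 coelomocyte markers (1 fell with the block or without WT replicate 1). Medians of all these somatic lists lay below the median of all genes (-0.04). CPM is relative to the rest of each library, so these values do not show that somatic RNA fell in absolute amount. Changes in the amount of somatic tissue, in RNA per somatic cell and in RNA of other tissues cannot be told apart.

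Histone genes had calls in both directions. Of 25 genes with a his symbol and enough counts, 5 rose and 1 fell (20% and 4%, against 5.51% and 10.1% of all genes). The rises were all core histone genes: his-60 (log2 0.93), his-61 (1.08), his-37 (0.89), his-62 (0.90) and his-68 (0.60). Each of the 5 calls ended without WT replicate 3 (adjusted p 0.0515 or more), and 0 to 2 were left when any 1 library other than WT replicate 1 was omitted, against 12 without WT replicate 1 and 10 with the replicate block. Those of his-62 and his-68 ended under upper-quartile scaling as well (0.064 and 0.0678). The only fall among the 25 was his-24, which encodes a linker histone and was at 37.1, 33.0 and 33.5 CPM in fbf-2 and 95.5, 89.5 and 97.6 CPM in WT (log2 -1.45, SE 0.0951, adjusted p = 0.000118). Of the 7 other linker histone genes tested hil-3 (log2 -1.18) and hil-2 (-0.75) fell (28.6% against 10.1% of all genes; 3 fell with the block). The other 5 did not pass. The summed level of all 8 listed was 899 CPM on average in fbf-2 and 902 CPM in WT. Core histone messages mostly lack a polyA tail, and an mRNA kit therefore measures them poorly. Of 77 cytosolic ribosomal protein genes 0 passed (1 fell with the block, and 6 rose and 5 fell without WT replicate 1). Of 33 proteasome genes 0 passed either (3 rose with the block, and 9 rose and 2 fell without WT replicate 1).

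A larger share of genes fell on the X chromosome, which is largely silent in the germline, than on the autosomes. Of 1921 X-linked genes 342 fell (17.8%) and 45 rose (2.34%), while of 11458 autosomal genes 1015 fell (8.86%) and 691 rose (6.03%). The median log2 fold change was -0.21 on X and -0.01 on the autosomes. Among the autosomes the share that fell ran from 6.11% on chromosome I to 10.7% on chromosome V. The X counts were 536 falls and 107 rises with the replicate block, 560 and 147 without WT replicate 1 and 423 and 33 under upper-quartile scaling. They were 117 to 167 and 15 to 27 when any 1 other library was left out. With the block 27.9% fell on X and 15.7% on the autosomes. The shares were 28.6% and 16.4% without WT replicate 1, and 22% and 11% under upper-quartile scaling.

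The following splits of the X-linked genes were chosen after their values were seen. Restricting to genes with neither the germline-enriched nor the FBF-2-bound flag gave 335 falls among 1850 on X (18.1%) and 902 among 7865 on the autosomes (11.5%). When genes were divided into 4 equal classes by their mean level over the 6 libraries, the share that fell was 5.93% on X and 5.95% on the autosomes in the lowest class (means up to 2.30 CPM). It was 23.7% on X and 16% on the autosomes in the next, 17.9% and 10.4% in the one above, and 30.1% and 3.97% in the highest (means over 65.8 CPM). Along the X chromosome it lay between 9.43% and 22.8% in all 18 windows of 1 Mb. The difference between chromosomes was thus not seen in the lowest class and was widest in the highest, whose X-linked members include the yolk gene vit-1 and the intestinal protease gene cpr-6. The intestine markers described above had 11 of 21 genes lower, and their part in the X-linked falls was not tested.

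**Figure D5:**
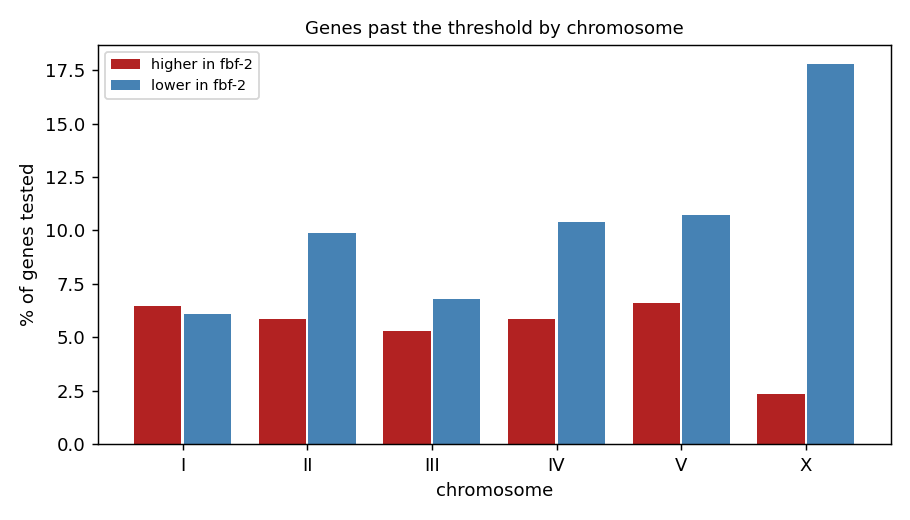
Share of genes tested on each chromosome that passed an adjusted p of 0.05, higher (red) or lower (blue) in fbf-2. The X chromosome has 17.8% lower and 2.34% higher, against 6.11 to 10.7% lower and 5.31 to 6.61% higher on the 5 autosomes.

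Single genes with no counts in a group were listed at a floor of 3 counts per group. F56A4.3 on chromosome V (2453414 to 2456147, plus strand) had 565, 388 and 489 counts in the fbf-2 libraries and 0 in every WT library, at least 337-fold higher. The pseudogene srbc-15, on the same chromosome (2345676 to 2348123), had 115, 91 and 78 counts in fbf-2 and 0 in every WT library, at least 66.3-fold higher. F59B2.12 on chromosome III was the reverse, with 0 counts in every fbf-2 library and 16, 47 and 43 in WT, at least 50.4-fold lower. Each was therefore present in all libraries of a group and undetected in all of the other.

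The window of chromosome V between 2300000 and 2500000, which holds F56A4.3 and srbc-15, also holds pud genes, small paired genes whose products are known to be abundant in dauer larvae and in worms with altered insulin signalling. pud-3 (2324634 to 2325152) was at 40.3, 31.8 and 42.1 CPM in fbf-2 and 539, 224 and 290 CPM in WT (log2 -3.20, SE 0.313, adjusted p = 0.000602). pud-4, beside it (2326678 to 2327282), was at 8.99, 7.50 and 8.38 CPM in fbf-2 and 103, 42.1 and 62.8 CPM in WT (log2 -3.05). pud-2.2 fell by 2.02 on the log2 scale with an adjusted p of 0.0496, a call lost without WT replicate 3 or any 1 fbf-2 library (up to 0.133), with a minimum of 10 counts (0.0508) and by limma-voom (0.0757). Its log2 fold change was -1.03 without WT replicate 1. The remaining tested pud gene, pud-1.1, had a log2 fold change of -1.79 (adjusted p = 0.0625) and passed with the replicate block (0.00213) and, at a log2 fold change of -0.94, without WT replicate 1 (0.0434). WT replicate 1 had the highest level of all 4 pud genes. In the whole window 8 genes were tested, of which 2 rose, 3 fell and 3 did not pass. Of all genes 5.51% rose and 10.1% fell. The 2 rises were F56A4.3 and srbc-15, which passed the count filter only through the fbf-2 libraries. The window was chosen after the values were seen, so nothing is read from these numbers.

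Large falls outside these groups included C16D9.5, a protein-coding gene on chromosome V (8243679 to 8245557, minus strand), at 0.313, 0.255 and 0.463 CPM in fbf-2 and 13.0, 9.25 and 11.3 CPM in WT (log2 -4.99, SE 0.257, adjusted p = 4.27e-05). H17B01.2 (log2 -3.60), Y43C5A.7 (-3.12), F42A10.7 (-2.94), C31H5.6 (-2.34) and Y32F6A.4 (-1.93) are likewise without assigned names. F42A10.7 was the most abundant of these, at 8.05, 9.19 and 7.36 CPM in fbf-2 and 64.5, 72.0 and 52.2 CPM in WT.

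Families of fast-evolving F-box and MATH-domain genes, which act as adaptors for protein degradation, had calls in both directions. Of 189 F-box genes 11 rose and 10 fell (5.82% and 5.29%, against 5.51% and 10.1% of all genes), so the family did not exceed the share of all genes that fell and was near that of rises. The calls included fbxa-95 (log2 0.99), fbxa-31 (1.60) and fbxc-51 (-1.23), with 4 or 5 rises and 3 to 9 falls when any 1 library other than WT replicate 1 was left out. Of 61 MATH and BTB-MATH genes 7 rose (11.5%) and 10 fell (16.4%), with bath-1 at 12.7, 14.2 and 11.8 CPM in fbf-2 and 7.43, 4.68 and 4.44 CPM in WT (log2 1.27, adjusted p = 0.00565) and math-4 at 4.57 CPM on average in fbf-2 and 10.07 CPM in WT (-1.14, adjusted p = 0.00186). The F-box family had 21 rises and 26 falls with the block and 31 and 12 without WT replicate 1, and the MATH family 19 and 13 with the block and 21 and 12 without that library. For the MATH family the other omissions gave 2 to 5 rises and 4 to 7 falls.

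Neuropeptide and insulin-like genes, the secreted signals of the nervous system, had 1 rise and 2 falls among 109. These shares (0.917% and 1.83%) lay below those of all genes (5.51% and 10.1%). nlp-24 was at 31.4, 31.4 and 36.6 CPM in fbf-2 and 106, 57.4 and 73.3 CPM in WT (log2 -1.25, adjusted p = 0.00635). The others were the FMRFamide-like gene flp-18 (log2 0.58) and the insulin-like gene ins-34 (-0.74), the first ending without WT replicate 3 or any 1 fbf-2 library and the other without any library other than WT replicate 1 (adjusted p 0.058 to 0.0877). With the replicate block the family had 5 rises and 5 falls, and without WT replicate 1 there were 12 and 5. Of 168 nuclear hormone receptor genes 16 fell (9.52%, near the 10.1% of all genes) and 1 rose. There were 4 to 6 falls when any 1 library other than WT replicate 1 was left out, 24 falls and 10 rises without that one, and 22 and 2 with the block. nhr-173 (log2 -1.88) and nhr-74 (-1.42) fell together with nhr-25, and nhr-86 rose by 0.48 (adjusted p = 0.0155, ending without any 1 fbf-2 library at up to 0.0684).

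Genes known to respond to insulin signalling and the dauer state had 5 rises and 3 falls among 21 (23.8% and 14.3%, against 5.51% and 10.1% of all genes). There were 7 and 5 with the block, and 8 and 4 without WT replicate 1. The catalase genes moved apart, ctl-3 being at 6.84, 8.22 and 7.68 CPM in fbf-2 and 3.23, 3.78 and 3.37 CPM in WT (log2 1.12, adjusted p = 0.00321), and ctl-2 at 30.02, 29.7 and 29.2 CPM in fbf-2 and 44.0, 47.4 and 47.6 CPM in WT (-0.65, adjusted p = 0.00365). Besides icl-1, mtl-1, fat-7 and ftn-2, given above, dod-22 rose (log2 1.10) and dod-24 fell (-0.57). The dod-22 call ended without WT replicate 3 (adjusted p = 0.0524) and the dod-24 call without any library other than WT replicate 1 (up to 0.0811).

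Among 24 genes for making, storing and taking up fat, which include vit-1 and acdh-1 above, 5 fell and 1 rose (20.8% and 4.17%, against 10.1% and 5.51% of all genes). fasn-1, the fatty acid synthase, was at 116, 150 and 179 CPM in fbf-2 and 202, 343 and 340 CPM in WT (log2 -0.99, adjusted p = 0.0214), and its known activator sbp-1, an SREBP-type factor, fell by 0.68 (17.7 against 28.1 CPM on average). acdh-2 (log2 -0.89) and hacd-1 (-0.49) made up the falls. Of these only acdh-2 kept its call in every omission. fasn-1 ended without WT replicate 2 or 3 or fbf-2 replicate 1 or 2 (adjusted p up to 0.0943), and sbp-1 and hacd-1 without any library other than WT replicate 1 (up to 0.129). Without WT replicate 1 the list had 12 falls and 3 rises, and with the replicate block 10 and 3.

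Of 12 pals genes, a family that marks the response to intracellular pathogens, 2 fell (16.7% against 10.1% of all genes) and 0 rose. pals-23 was at 3.99, 3.27 and 3.47 CPM in fbf-2 and 8.18, 7.76 and 7.54 CPM in WT (log2 -1.12, adjusted p = 0.00266), and pals-24 had a log2 fold change of -0.89 (adjusted p = 0.00776).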

How the data were processed

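RNA sequencing libraries of whole adult worms of the groups fbf-2 and WT (3 each) were compared. Per the submitters' processing notes, the authors used STAR 2.7.9a, featureCounts from Subread 2.0.1, DESeq2 1.34.0 and the build WBcel235; the sources used here state no settings, strand or treatment of reads with several matches. The authors deposited raw counts per gene for 46904 gene identifiers, per the file headers. Another 18 columns, which hold the authors' normalised values, stayed out of every step. Gene positions came from the Ensembl release 115 annotation of WBcel235 (46817 identifiers found).

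Counts were tested in R 4.3.3 with edgeR 4.0.16 (filterByExpr, TMM, glmQLFit and glmQLFTest, Benjamini-Hochberg over all 13401 genes tested, threshold 0.05). Alternatives used limma 3.58.1, DESeq2 1.42.0 and the settings in the closing section. CPM is counts per 1000000 of the TMM-scaled library size. Fold changes are fbf-2 over WT. The members and gene lists were chosen with earlier results of these data known. Named genes were fbf-1 and fbf-2, the 15 largest rises and falls with a mean of 50 counts and no overlap, the 10 largest gains and losses of CPM, the 10 smallest adjusted p in each direction, genes at 0 in a group with 60 or more counts in the other, and leading members of each list. Lists are described by their counts, read against the shares of all genes (5.51% rose and 10.1% fell), and for the larger ones by their median.

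The test was tried on simulated counts of 13096 genes built from these libraries. It recovered 20% of genes changed 1.5-fold, 78% at 2-fold, 94% at 4-fold and 98% at 8-fold, and 11 of its 156 calls were on unchanged genes. Each share rests on 50 genes. The simulation changed a smaller share of genes than was called in the data. It held no effect of the replicate number and no shared shift of WT replicate 1, so these shares need not hold for the comparison itself. No pair of libraries within a group agreed within sampling noise. Deviations from the group mean were correlated across genes between libraries with the same number (r = 0.499, 0.315 and 0.282). Between libraries with different numbers r ran from -0.482 to 0.267. The highest of these was between fbf-2 replicate 3 and WT replicate 2, close to the 0.282 of the libraries numbered 3. The labels state no pairing, and the main test used no block. On the correlations alone the number was taken as a possible pairing. Blocked values are given where they change the call of a named gene or move a count of called members by over 1.5 times. Counting intervals (exact) and floors cover counting error only.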

Additional observations from a re-analysis of the deposited data

How the results depend on the processing

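The numbers of rises (738) and falls (1357) depended on the settings. Rises were 449 under upper-quartile scaling, 1140 with no count filter, 1236 by DESeq2, 2073 with the replicate block and 2560 with the block and without WT replicate 1 and fbf-2 replicate 1. Falls were 2340 with the replicate block and 2566 with the block and without that pair. Leaving out each library in turn gave 189 to 2523 rises and 509 to 2480 falls, the lowest without WT replicate 3 and the highest without WT replicate 1. The changes of fbf-2 and fbf-1 kept their direction and passed under each of these settings. For the other 223 genes the report gives tests of, 1970 of 2007 values under settings that keep all libraries, or that block and drop a pair, stayed on their side of the threshold, 25 no longer passed, 12 newly passed and 0 changed sign. When 1 library was left out, 361 of 1338 values no longer passed, 4 newly passed and 0 changed sign. Of 221 named genes past the threshold, fbf-2 and fbf-1 included, 128 kept their call in every single omission and 93 did not; the libraries concerned are named beside them above. The replicate block ended the call of 0 named genes. Omitting a library leaves 2 in its group, which by itself lowers the number of calls; why omitting WT replicate 1 raised it was not tested. The planned search for FBF binding motifs was not run.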

Other observations

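Raw counts of the same genes in the other strains of the series, not scaled for library size, are given as values only. F56A4.3, detected in the fbf-2 libraries and at 0 in WT, had 60, 116 and 135 counts in the 3xlnc libraries, 142, 101 and 121 in the fbf-1 3xlnc libraries and 0 in all 3 fbf-1 libraries. srbc-15 had the same pattern, with 28, 34 and 35 counts in 3xlnc, 31, 27 and 35 in fbf-1 3xlnc and 0 in fbf-1. msp-36, nearly absent from the fbf-2 libraries with 1 count in all, had 775, 841 and 979 counts in 3xlnc, 1133, 484 and 537 in fbf-1 3xlnc and 382, 289 and 349 in fbf-1. F59B2.12, undetected in fbf-2, had 8, 0 and 0 counts in 3xlnc, 49, 34 and 32 in fbf-1 3xlnc and 0, 72 and 0 in fbf-1. hsp-16.41, the gene with the steepest rise in fbf-2 among those with counts in both groups, had 294, 153 and 176 counts in 3xlnc, 2, 1 and 1 in fbf-1 3xlnc and 60, 84 and 112 in fbf-1. hsp-70, with 959, 492 and 1041 counts in fbf-2 and 8, 14 and 22 in WT, had 672, 430 and 444 in 3xlnc. Its counts were 13, 15 and 8 in fbf-1 3xlnc and 65, 55 and 70 in fbf-1.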
